A study of Mus musculus with 2 samples.

Results

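The 31 genes described here copy DNA or mark cells about to copy it. They were named by symbol in a list of DNA replication and S phase genes and make up 31 of the 32285 genes counted in 2 single-cell libraries of mouse uterus. The rule uses gene symbols and no measured value, although the list was drawn up with earlier results of these data known. All 31 had UMIs (molecules counted through unique molecular identifiers) in both libraries. The DOX plus AMH library came from mice given doxorubicin at 3 mg/kg with anti-Müllerian hormone (AMH) at 0.75 mg/kg, and the DOX library from mice given doxorubicin at 3 mg/kg alone. Doxorubicin, a chemotherapy drug, traps topoisomerase II on broken DNA. AMH is a hormone of the TGF-beta family. All animals had doxorubicin, so no untreated level is known here. Uteri were taken at 4 h, and those of 5 animals were pooled into each library. For bulk sequencing the series text names postnatal day 25 and 2 weekly doses; whether this schedule also holds for the pooled animals is not given. Each group is therefore 1 library: no difference could be tested, and the intervals below reflect counting error alone, without the variation among animals. Intervals on summed UMIs also leave out the variation among cells.

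Before a cell copies its DNA, the origin recognition complex, Cdc6 and Cdt1 load the MCM helicase onto origins in G1. Cdc45 and the GINS complex then switch the helicase on, DNA polymerase alpha with primase starts each new strand, and the sliding clamp Pcna, placed by replication factor C, holds the polymerases to it. Many of these genes are switched on together at the G1 to S border by E2F transcription factors, which the RB family holds back in resting cells. In the rodent uterus, stromal and epithelial cells divide in response to ovarian steroids and grow fast before puberty.

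The promoter windows of 6 members are shown because these genes mark both ends of the pattern in stromal-like cells: E2f8, Pclaf and Rrm2 were among the lowest in the DOX plus AMH library relative to DOX, while Pola1, Pold1 and Slbp were at or above the DOX level. Each window runs 5′ to 3′ on the gene's own strand, from 250 bases before the start site to 50 bases after it, and comes from RefSeq on GRCm38.p6. Capitals mark matches to an E2F site, searched as TTTCCCGC, TTTCGCGC, TTTGCCGC and TTTGGCGC on both strands. They are E2f8 at chr7:48881547-48881846 (minus strand), Pclaf at chr9:65890073-65890372 (plus), Rrm2 at chr12:24708004-24708303 (plus), Pola1 at chrX:93632106-93632405 (minus), Pold1 at chr7:44548766-44549065 (minus) and Slbp at chr5:33652525-33652824 (minus).
E2f8: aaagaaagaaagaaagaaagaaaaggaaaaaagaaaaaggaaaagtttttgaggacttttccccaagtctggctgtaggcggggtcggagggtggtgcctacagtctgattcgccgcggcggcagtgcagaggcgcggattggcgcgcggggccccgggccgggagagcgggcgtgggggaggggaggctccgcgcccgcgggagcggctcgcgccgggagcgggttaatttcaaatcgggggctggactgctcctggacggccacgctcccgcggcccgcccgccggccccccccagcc
Pclaf: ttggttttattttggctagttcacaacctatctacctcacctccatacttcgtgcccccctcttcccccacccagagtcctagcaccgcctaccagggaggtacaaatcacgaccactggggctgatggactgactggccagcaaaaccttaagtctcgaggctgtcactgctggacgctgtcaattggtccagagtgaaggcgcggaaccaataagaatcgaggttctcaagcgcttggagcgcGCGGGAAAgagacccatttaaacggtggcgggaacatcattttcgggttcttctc
Rrm2: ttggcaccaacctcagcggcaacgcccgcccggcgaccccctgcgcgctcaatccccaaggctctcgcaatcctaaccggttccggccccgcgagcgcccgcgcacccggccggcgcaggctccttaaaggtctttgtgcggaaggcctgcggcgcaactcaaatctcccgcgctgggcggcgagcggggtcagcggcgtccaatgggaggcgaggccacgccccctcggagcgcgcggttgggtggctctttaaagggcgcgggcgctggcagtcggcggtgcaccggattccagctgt
Pola1: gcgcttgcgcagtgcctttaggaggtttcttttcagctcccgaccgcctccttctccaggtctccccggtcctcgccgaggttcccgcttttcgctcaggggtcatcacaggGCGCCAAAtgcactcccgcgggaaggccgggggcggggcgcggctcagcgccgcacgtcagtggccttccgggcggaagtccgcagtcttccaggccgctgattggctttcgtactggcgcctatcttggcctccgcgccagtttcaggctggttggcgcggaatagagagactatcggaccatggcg
Pold1: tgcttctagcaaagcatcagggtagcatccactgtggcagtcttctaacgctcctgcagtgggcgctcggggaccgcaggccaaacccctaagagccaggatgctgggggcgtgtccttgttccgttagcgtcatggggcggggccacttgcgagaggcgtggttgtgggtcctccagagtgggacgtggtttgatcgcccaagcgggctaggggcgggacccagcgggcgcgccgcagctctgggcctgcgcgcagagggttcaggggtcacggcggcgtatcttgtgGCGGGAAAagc
Slbp: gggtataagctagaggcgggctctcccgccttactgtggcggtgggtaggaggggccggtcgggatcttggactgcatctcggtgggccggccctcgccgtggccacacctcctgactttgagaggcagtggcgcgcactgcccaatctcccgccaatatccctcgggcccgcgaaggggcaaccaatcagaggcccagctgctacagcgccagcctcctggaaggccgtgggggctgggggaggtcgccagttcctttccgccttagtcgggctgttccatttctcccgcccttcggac

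Pclaf and Pold1 hold the same E2F word, GCGGGAAA, starting 5 bases before the start site in Pclaf and 39 bases after it in Pold1. Pola1 holds GCGCCAAA, starting 138 bases before its start. The windows of E2f8, Rrm2 and Slbp hold none of these letters. Of the 26 members with a window, 13 held an E2F match, and 13 of the 29 member windows (44.8%) did, against 744 of all 32851 windows (2.26%). A CCAAT box, CCAAT on either strand, stood in the windows of 18 of the 26 members (69.2%) and in 37.4% of all windows; it can share at most 1 base with an E2F match. The E2F word stood in 7 of the 16 members (43.8%) that were at least 1.3-fold lower in stromal-like cells and in 6 of the 10 other members (60.0%).

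After filtering, 6738 cells of the DOX plus AMH library and 7431 cells of the DOX library remained, with medians of 10100.5 and 13765 UMIs per cell. The libraries shared 17 cell barcodes, 13 of them among kept cells. Cells were classed by summed marker genes, and 10 classes held at least 50 cells in both libraries; classes are called like the cell type whose markers they carry. Of the 14169 kept cells, 665 lay near the limits of the classes, and 96.5% of classed cells in named clusters carried the same name by clustering. Markers of some other cells stood higher in DOX plus AMH also inside the stromal-like class: the 8 markers of squamous epithelium summed to 54.9 CPM (UMIs scaled to a common total) in DOX plus AMH and 4.76 CPM in DOX, and the 4 erythroid markers to 83.1 CPM and 13.04 CPM. None of these markers is a member. Their part in the results was not tested.

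In stromal-like cells (3653 in DOX plus AMH, 4934 in DOX), the 31 members summed to 278.2 CPM in DOX plus AMH and 329.9 CPM in DOX, a log2 ratio of -0.25 (95% interval -0.28 to -0.21). All log2 ratios are DOX plus AMH over DOX, so negative values mean lower with AMH. All 31 members held at least 20 UMIs in this class; 17 were lower by 1.3-fold or more, and 0 higher by that much. Over all 18340 genes with at least 20 UMIs, 8.88% were as much lower and 26.2% as much higher. The members' median log2 ratio was -0.41, against 0.17 over all these genes, and scaling by TMM, which centres on the bulk of genes, shifted every stromal ratio by -0.19 and gave -0.44 for the sum. The members' ratios ran from -2.01 to 0.27, with a wide spread also within roles; no difference between roles was tested. Values below are on the CPM scale unless TMM is named.

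**Figure D1:**
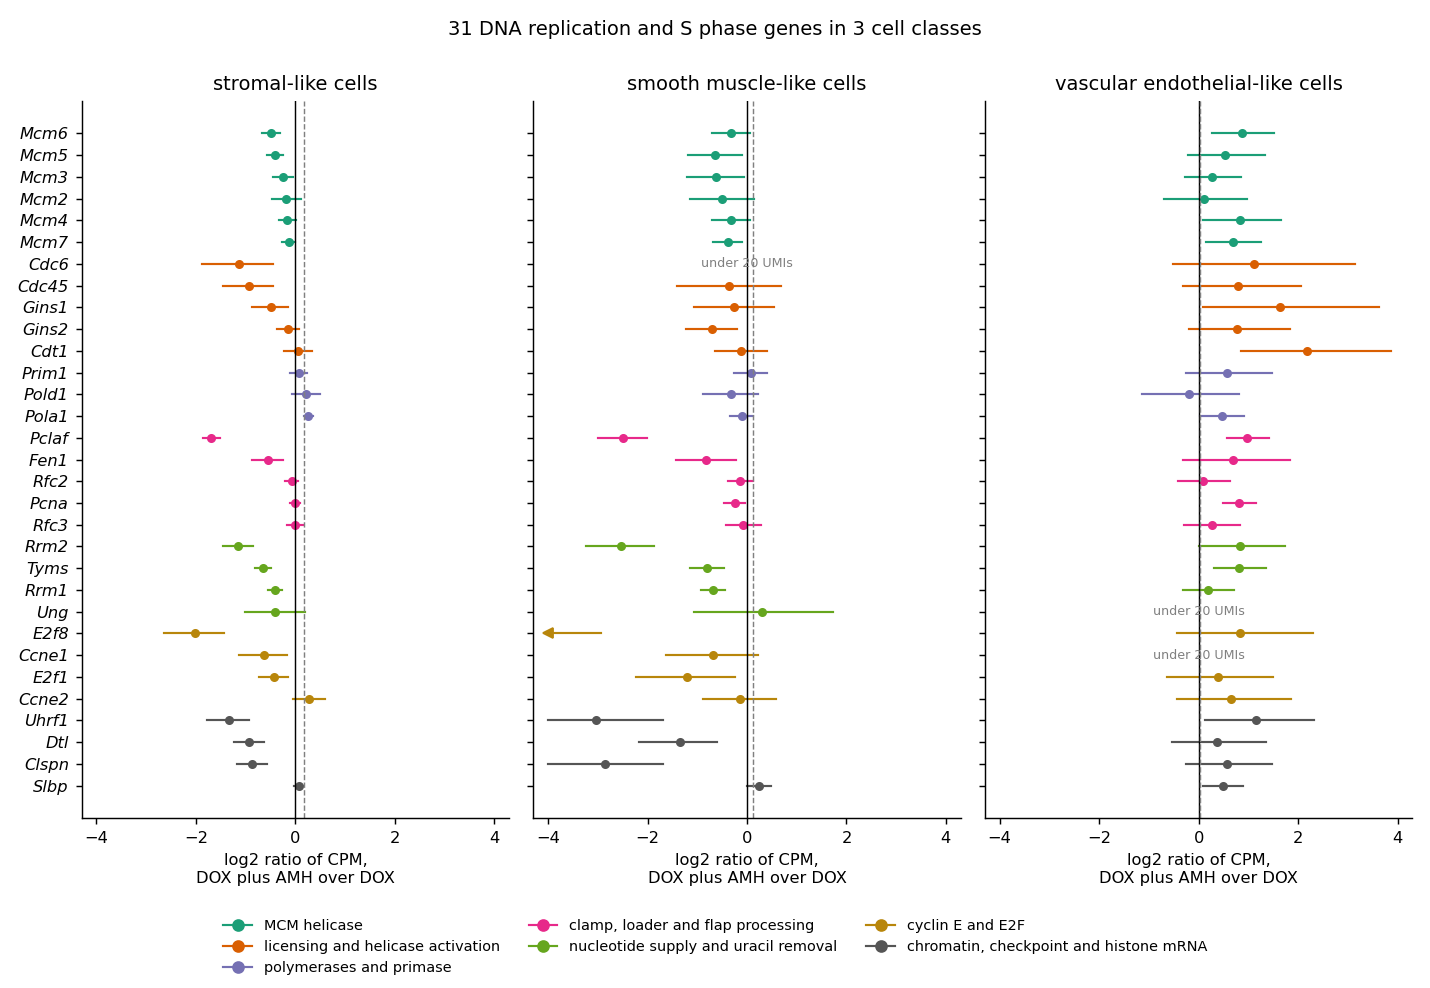
Log2 ratio of CPM, DOX plus AMH over DOX, for each member (rows, coloured by role) in 3 cell classes; bars are exact 95% intervals for counting error, cut at -4 and 4, the dashed line is the median of all genes, and the arrow marks E2f8 at -5.50. In the stromal-like and the smooth muscle-like panel, Pclaf, Rrm2, E2f8, Uhrf1, Dtl and Clspn lie far left of the dashed line while Pola1, Prim1, Slbp and Rfc3 stay near 0, and in vascular endothelial-like cells most members lie to its right.

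The licensing and helicase genes split. The 6 MCM subunits, which form the helicase ring, summed to 55.5 CPM in DOX plus AMH and 66.8 CPM in DOX (log2 ratio -0.27, interval -0.34 to -0.20). Mcm6 (8.33 CPM in DOX plus AMH, 11.7 CPM in DOX; -0.49) and Mcm5 (9.81 CPM and 13.03 CPM; -0.41) were past 1.3-fold, and Mcm2, Mcm3, Mcm4 and Mcm7 lay between -0.24 and -0.14. The loader Cdc6 was at 0.543 CPM in DOX plus AMH and 1.19 CPM in DOX (-1.13, interval -1.87 to -0.45), from 22 and 91 UMIs. Its partner Cdt1 stood at 4.27 CPM and 4.12 CPM (0.05, interval -0.22 to 0.33), a ratio whose sign turns under TMM scaling (-0.14). Of the helicase activators, Cdc45 was at 1.06 CPM in DOX plus AMH and 2.04 CPM in DOX (-0.94), Gins1 at 2.25 CPM and 3.18 CPM (-0.50), and Gins2 at 6.08 CPM and 6.71 CPM (-0.14, interval -0.37 to 0.08).

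All 3 polymerase and primase genes had CPM ratios above 0, as did Ccne2, Slbp and Cdt1. Pola1, the catalytic subunit of DNA polymerase alpha, was at 38.4 CPM in DOX plus AMH and 32.1 CPM in DOX (0.26, interval 0.16 to 0.35). It was the only member in this class whose interval lay above 0, beside 42.2% of all genes. TMM scaling brought its ratio to 0.07. Prim1, the primase subunit, was at 11.5 CPM and 10.99 CPM (0.07, or -0.12 with TMM), and Pold1, the catalytic subunit of polymerase delta, at 4.13 CPM and 3.54 CPM (0.22, interval -0.07 to 0.50). The 3 together summed to 54.0 CPM in DOX plus AMH and 46.7 CPM in DOX, a log2 ratio of 0.21 (interval 0.13 to 0.29). This was close to the median of 0.17 over all genes in the class.

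Around the clamp, Pcna itself was level at 29.3 CPM in DOX plus AMH and 29.6 CPM in DOX (-0.01, interval -0.12 to 0.09; -0.20 with TMM), as were the clamp loader subunits Rfc2 (-0.07) and Rfc3 (0.00). Pclaf, a small protein that binds Pcna, was at 8.18 CPM and 26.4 CPM, from 331 and 2016 UMIs (-1.69, interval -1.86 to -1.52). Fen1, the flap nuclease that trims Okazaki fragments, was at 2.77 CPM in DOX plus AMH and 4.07 CPM in DOX (-0.56). The counting intervals of the Pcna and Pclaf ratios did not overlap.

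The nucleotide supply genes were lower. Rrm2, the small subunit of ribonucleotide reductase, was at 2.96 CPM in DOX plus AMH and 6.57 CPM in DOX (-1.15, interval -1.45 to -0.86), and its large subunit Rrm1 at 16.2 CPM and 21.6 CPM (-0.41). Thymidylate synthase, Tyms, was at 10.8 CPM and 16.9 CPM (-0.64). The uracil glycosylase Ung was counted in 34 UMIs of DOX plus AMH and 85 UMIs of DOX (-0.40), with an interval of -1.02 to 0.19.

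Among the regulators, E2f8, a repressor of E2F targets that is made in S phase, had the lowest ratio of the 31: 0.667 CPM in DOX plus AMH and 2.69 CPM in DOX, from 27 and 206 UMIs (-2.01, interval -2.65 to -1.43). The activator E2f1 was at 3.26 CPM and 4.42 CPM (-0.44). The G1 to S cyclins parted, with Ccne1 at 1.21 CPM in DOX plus AMH and 1.88 CPM in DOX (-0.64) and Ccne2 at 3.36 CPM and 2.79 CPM (0.27, interval -0.05 to 0.59). Uhrf1, which carries DNA methylation over to the new strand, was at 1.43 CPM and 3.62 CPM (-1.34). Dtl, which marks Cdt1 for destruction, was at 3.04 CPM in DOX plus AMH and 5.77 CPM in DOX (-0.92), and Clspn, a fork and checkpoint mediator, at 2.82 CPM and 5.14 CPM (-0.87). Slbp, which binds the stem loop of histone mRNAs, was level at 38.4 CPM and 36.6 CPM (0.07; -0.12 with TMM).

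For 12 members (Mcm2, Mcm3, Mcm6, Rrm2, Cdc6, Cdc45, Ung, E2f8, Clspn, Cdt1, Fen1 and Pclaf) the stromal-like level was under 0.2 of that in the highest class in both libraries. Free RNA from other cells can reach such low levels, and its part was not tested.

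The libraries differed in how many dividing cells they held. Clusters were built without the members, the other replication genes, the G2/M genes and histone genes, and 1 cluster, led by Hist1h1b, Prc1, Hmmr and Cenpf, held 14 cells of DOX plus AMH and 143 cells of DOX. Inside it the members were not lower: they summed to 2453 CPM in DOX plus AMH and 1829 CPM in DOX. Without that cluster, an alternative chosen after seeing the data, the members of the stromal-like class summed to 263.4 CPM in DOX plus AMH and 264.8 CPM in DOX (log2 ratio -0.01, interval -0.04 to 0.03), against a median of 0.17 over all genes. Then 7 members stayed at least 1.3-fold lower (Rrm2, Cdc6, Cdc45, Uhrf1, E2f8, Dtl and Pclaf) and 3 were at least 1.3-fold higher (Ccne2, Pola1 and Pold1), against 8.30% and 26.5% of all genes.

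Cell by cell, at a common depth of 5000 UMIs, the share of stromal-like cells with at least 3 member UMIs was 13.3% in DOX plus AMH (455 of 3413 cells, exact binomial interval 12.2 to 14.5%) and 11.9% in DOX (567 of 4781 cells, 10.95 to 12.8%). The 240 and 153 cells below that depth were left out, and at full depth, with medians of 10218 and 14781.5 UMIs, the shares were 43.7% and 53.2%. The direction of this share depends on the settings: the difference was 1.47 points here, -1.94 points at 5 member UMIs and -1.44 points after thinning to 2000 UMIs. Cells with at least 3 member UMIs and at least 3 UMIs of 30 G2/M genes made up 0.527% of stromal-like cells in DOX plus AMH (18 cells, interval 0.313 to 0.832%) and 3.30% in DOX (158 cells, 2.82 to 3.85%). Cells with member UMIs alone made up 12.8% in DOX plus AMH (interval 11.7 to 14.0%) and 8.55% in DOX (7.78 to 9.38%). At full depth, which differs between the libraries, they made up 41.8% and 44.6%, so this direction also depends on the settings. Of all thinned member UMIs in the class, 6.87% lay in G2/M cells in DOX plus AMH and 29.2% in DOX.

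Stromal-like cells with at least 3 G2/M UMIs carried several member UMIs in either library: 8.63 ± 9.38 per cell in DOX plus AMH (SD over 35 cells of 1 library) and 7.05 ± 7.63 in DOX (278 cells). Other stromal-like cells carried 1.21 ± 1.28 in DOX plus AMH and 1.06 ± 1.27 in DOX. In those other cells the members summed to a log2 ratio of 0.20 (interval 0.14 to 0.26), close to the median of 0.17 over all genes there. Of 29 members with at least 20 UMIs, the intervals of 8, Mcm2, Pcna, Slbp, Ccne2, Pola1, Prim1, Cdt1 and Pold1, lay above 0, and that of Mcm5 lay below 0. Over all genes 36.1% had intervals above 0 and 10.5% below 0, so the members' count above 0 was not higher than that background. Pclaf differed little within either kind of cell: outside G2/M cells it was at 2.78 CPM in DOX plus AMH and 2.98 CPM in DOX, and inside them at 211.4 CPM and 230.2 CPM. E2f8 was almost confined to G2/M cells, which held 6 of its 7 thinned UMIs in DOX plus AMH and 35 of 38 in DOX.

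**Figure D2:**
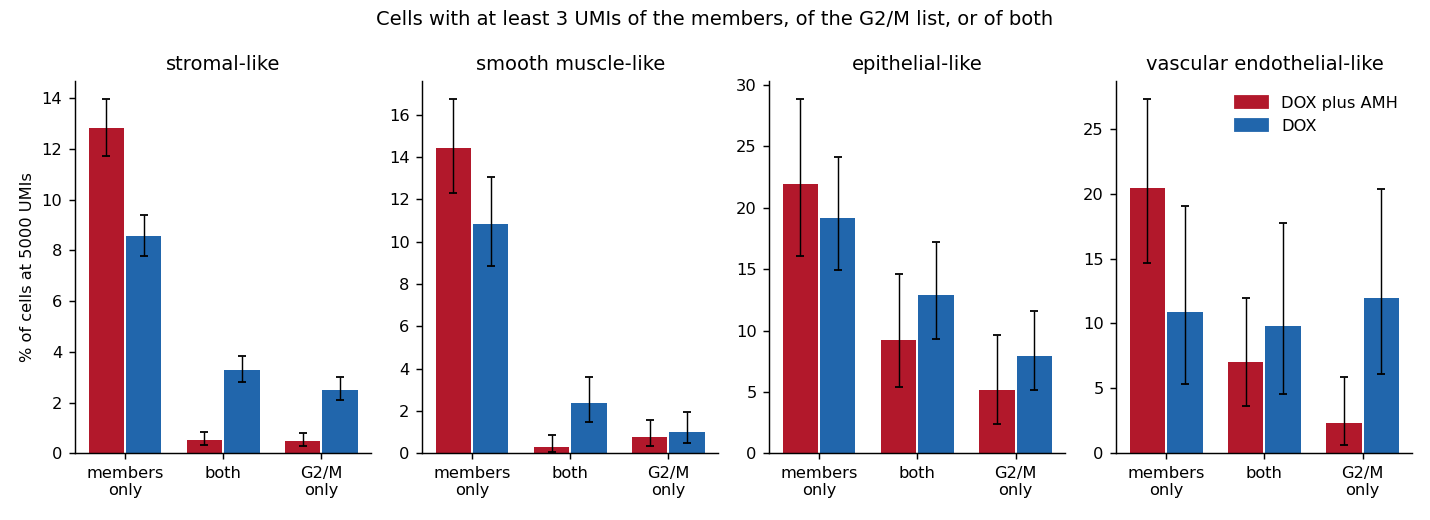
Share of cells (%) with at least 3 UMIs of the members only, of both lists, or of the G2/M list only, after thinning to 5000 UMIs per cell, in DOX plus AMH (red) and DOX (blue), with exact binomial 95% intervals. In stromal-like cells members alone were found in 12.8% and 8.55% of cells, and both lists together in 0.527% and 3.30%.

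No class of the uterus is known to lack these genes, so no class gives a true background for the shares. Among the other classes, smooth muscle-like cells (14.7% in DOX plus AMH, 13.2% in DOX, at medians of 9098 and 10405 UMIs) stood close to the stromal-like shares. Epithelial-like cells stood well above them at 31.2% and 32.1%, with medians of 28180 and 29079 UMIs.

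Within the stroma the picture varied by cluster. Of 12 stromal-like clusters with at least 50 cells in both libraries, the summed members had an interval above 0 in 8, below 0 in 2 and across 0 in 2, with a median log2 ratio of 0.24. Since most genes also had ratios above 0 in these clusters (medians of 0.06 to 0.23), the members were set against them: the interval lay above the all-gene median in 3 clusters and below it in 4. Cluster 3, led by Gap43, Dio2 and Scube1, had the highest ratio, with 294.2 CPM in DOX plus AMH and 218.0 CPM in DOX (0.43, interval 0.31 to 0.55). Cluster 17, led by Il6, Bmper, Sntg1 and Apod, had the lowest, with 286.1 CPM in DOX plus AMH (170 cells) and 553.6 CPM in DOX (324 cells), a log2 ratio of -0.95 (interval -1.07 to -0.84). Its G2/M genes summed to 57.8 CPM in DOX plus AMH and 596.1 CPM in DOX. A cluster led by C1qtnf3 and Col14a1 held 27 cells of DOX plus AMH and 271 of DOX, with members at 579.6 CPM and 427.0 CPM, so it held fewer DOX plus AMH cells while its member level was not lower.

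**Figure D3:**
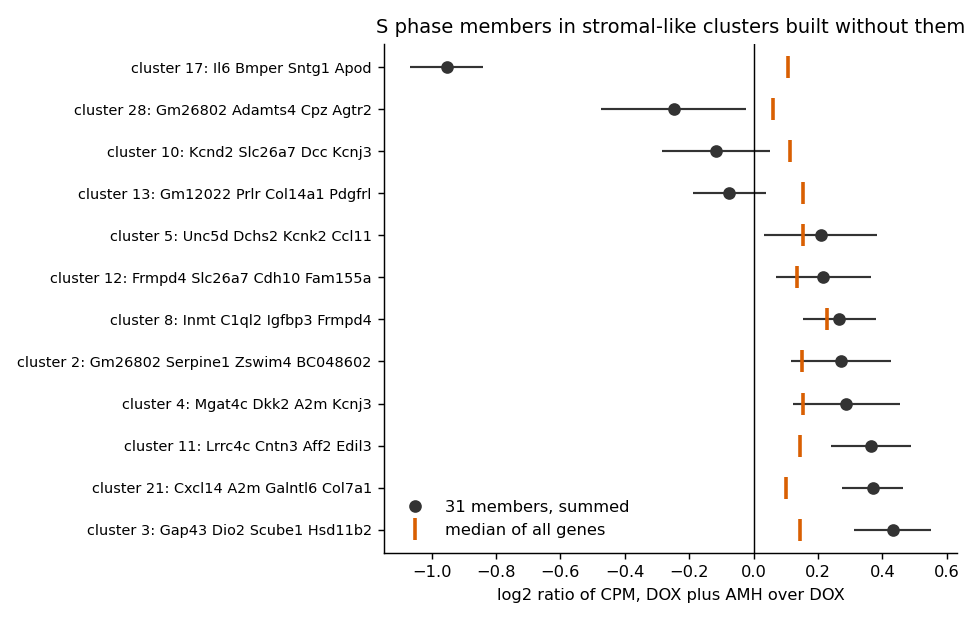
Log2 ratio of summed member CPM, DOX plus AMH over DOX, in the 12 stromal-like clusters with at least 50 cells in both libraries (points, with 95% counting intervals), beside the median of all genes in the same cluster (orange). Cluster 17 lies at -0.95 and cluster 3 at 0.43.

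Across the 31 members, the stromal ratio was set against how tightly a gene was tied to G2/M cells. That tie was measured in epithelial-like cells of both libraries together, as the log2 of a gene's level in G2/M cells over its level in other cells. Pearson's r between it and the stromal log2 ratio was -0.67 and Spearman's rho -0.52 over the 31 genes, which share their cells and are not independent. Many ties rest on few UMIs; over the 18 members with at least 20 thinned epithelial UMIs, r was -0.79 and rho -0.49. E2f8 (5.94, from 15 UMIs), Rrm2 (5.31, from 10), Pclaf (4.38, from 92) and Clspn (4.25, from 16) had the highest tie, and all 4 were at least 1.3-fold lower in the stromal-like class. Ccne2 had a tie of 2.94, from 11 UMIs, and a stromal ratio of 0.27.

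**Figure D4:**
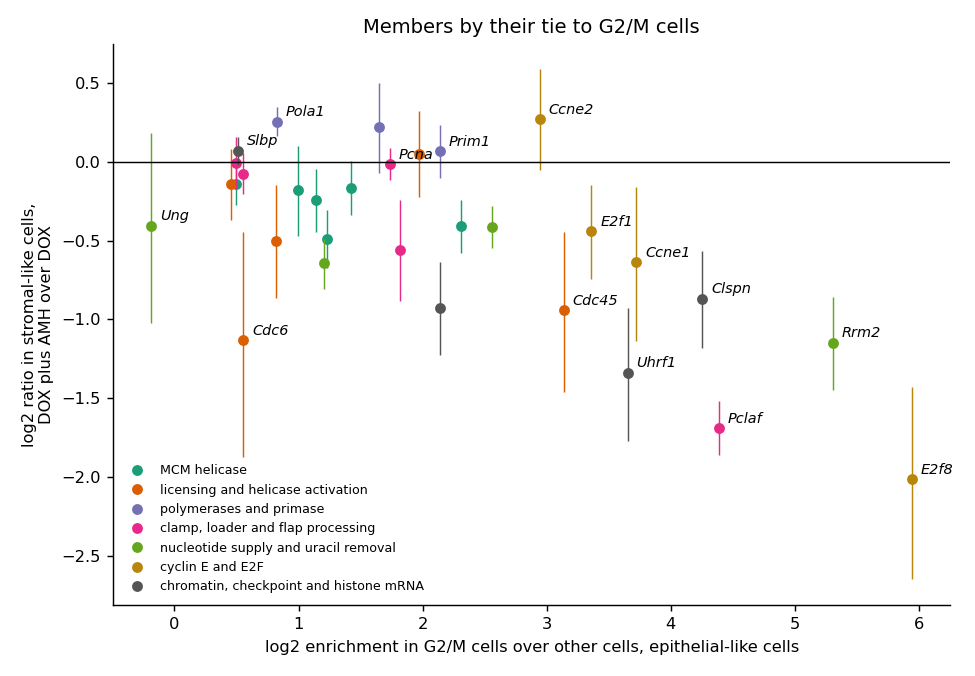
Each point is 1 member: its log2 enrichment in G2/M cells over other cells among epithelial-like cells (x) against its log2 ratio in stromal-like cells, DOX plus AMH over DOX (y), with the 95% counting interval of y. E2f8 lies at 5.94 and -2.01, and Pola1 at 0.83 and 0.26.

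In smooth muscle-like cells (1138 and 975), members summed to 254.8 CPM in DOX plus AMH and 348.7 CPM in DOX (-0.45, interval -0.52 to -0.38; -0.57 with TMM). Of 30 members with at least 20 UMIs, 16 were at least 1.3-fold lower and 0 higher, against 11.9% and 21.8% of all genes. The same kind of genes led: Pclaf was at 3.78 CPM in DOX plus AMH and 21.3 CPM in DOX (-2.49), Rrm2 at 2.02 CPM and 11.6 CPM (-2.52), Uhrf1 at 0.440 CPM and 3.59 CPM (-3.03) and Clspn at 0.615 CPM and 4.44 CPM (-2.85). E2f8 was counted in 1 UMI of DOX plus AMH and 42 UMIs of DOX (-5.50, interval -10.83 to -2.94). Slbp was at 30.0 CPM and 25.4 CPM (0.24, interval 0.00 to 0.47), short of 1.3-fold. The median over all genes in this class was 0.12.

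The smooth muscle ratio was uneven between clusters, and only 48.7% of the class carried the same name by clustering. Cluster 19, led by Fstl4 and Grm8, had members at 294.4 CPM in DOX plus AMH and 595.2 CPM in DOX (-1.02), with G2/M genes at 180.7 CPM and 2198 CPM. Cluster 18, led by Scx and Actg2, had 261.8 CPM in DOX plus AMH and 363.9 CPM in DOX (-0.48). Cluster 16, which stayed unnamed because the pericyte marker Abcc9 is among its leading genes, held 560 and 412 cells and had 229.1 CPM and 257.2 CPM (-0.17). In smooth muscle-like cells without any G2/M UMI at 5000 UMIs, the sums were 255.0 CPM in DOX plus AMH and 224.8 CPM in DOX. The log2 ratio was 0.18 (interval 0.04 to 0.32), against a median of 0.13 over all genes there.

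Pericyte-like cells (285 and 181) had members at 284.4 CPM in DOX plus AMH and 486.1 CPM in DOX (-0.77, interval -0.92 to -0.63). Of 21 members with 20 UMIs, 17 were at least 1.3-fold lower and 0 higher (21.7% and 19.0% of all genes), led by Pclaf at 8.83 CPM and 48.7 CPM (-2.46). Different clusters held the pericyte-like cells: cluster 38 had 0 cells of DOX plus AMH and 58 of DOX. In the clusters found in both libraries, the sum's ratio was -0.52 in cluster 0 and -0.79 in cluster 1. G2/M genes summed to 200.5 CPM in DOX plus AMH and 1118 CPM in DOX. Other cells' markers moved with it: 7 of 8 stromal markers were lower in DOX plus AMH (2602 CPM against 4963 CPM in DOX), as were all 8 vascular endothelial markers (163.4 CPM against 487.6 CPM), and their part in the member ratio was not tested. Lymphocyte-like cells (89 and 73) had the lowest ratio of the 10 classes, at 765.8 CPM in DOX plus AMH and 1625 CPM in DOX (-1.09, interval -1.26 to -0.91). There 18 of 20 members were lower and 0 higher (24.9% and 24.0% of all genes), and Pclaf was counted in 16 UMIs of DOX plus AMH and 145 UMIs of DOX (-3.40). Lymphocyte-like cells with both lists were 4 of 54 in DOX plus AMH and 14 of 47 in DOX, and in cells without G2/M UMIs, thinned, the sum's ratio was -0.21 (interval -0.77 to 0.37). Erythroid markers stood at 1565 CPM in the DOX plus AMH cells of this class and 31.1 CPM in the DOX cells, squamous markers at 254.1 CPM and 4.15 CPM, and all 8 stromal markers were lower at 350.04 CPM and 729.8 CPM. Their part in the member ratio was not tested.

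Vascular endothelial-like cells (218 and 130) went the other way. Members summed to 687.3 CPM in DOX plus AMH and 447.4 CPM in DOX (0.62, interval 0.50 to 0.74). Of 29 members, 22 were at least 1.3-fold higher and 0 lower, against 17.1% and 16.2% of all genes. The intervals of 12 members lay above 0, against 9.36% of all genes. Pcna was at 94.4 CPM in DOX plus AMH and 53.7 CPM in DOX (0.82), Mcm6 at 30.2 CPM and 16.4 CPM (0.88), Pclaf at 66.9 CPM and 34.0 CPM (0.98), and Cdt1 was counted in 42 UMIs and 5 UMIs (2.18, interval 0.85 to 3.88). The summed CPM of the G2/M genes differed little there, at 819.3 CPM and 736.5 CPM (0.15, interval 0.06 to 0.25). In cells thinned to a common depth the G2/M genes were lower, with 2.15 UMIs per cell in DOX plus AMH and 3.13 in DOX. G2/M cells made up 9.36% of thinned cells in DOX plus AMH and 21.7% in DOX. Member UMIs per cell stayed higher, at 2.44 and 1.83.

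The size of the endothelial ratio depended on which cells were called endothelial. All 8 stromal markers were lower in the DOX plus AMH cells of this class, summing to 709.5 CPM against 1843 CPM in DOX. The sums of lymphatic endothelial (43.5 CPM against 192.8 CPM in DOX) and epithelial markers (29.9 CPM against 93.1 CPM) were lower too. So was that of pericyte markers (391.9 CPM against 615.0 CPM). Squamous (76.1 CPM against 40.5 CPM in DOX) and erythroid markers (132.6 CPM against 29.0 CPM) were higher in sum. Of the 130 DOX cells, 13 lay near the limits of the class. In cluster 9, led by Flt1, Adgrl4 and Cyyr1 (229 and 125 cells), members summed to 660.7 CPM in DOX plus AMH and 593.4 CPM in DOX. The log2 ratio was 0.16 (interval 0.06 to 0.25). Of 29 members 6 were at least 1.3-fold higher and 1 lower in this cluster, against 16.3% and 19.04% of all genes. The intervals of 4 members lay above 0, against 11.7% of all genes. The summed CPM of the G2/M genes had the opposite order there from that in the class, with 807.6 CPM in DOX plus AMH and 1046 CPM in DOX. The part of other cells' RNA in the endothelial ratio was not tested.

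The class gated on dendritic markers (73 and 124 cells), whose cluster is led by the antibody genes Igkc, Ighm and Jchain beside Cd209a, had 943.9 CPM of members in DOX plus AMH and 757.8 CPM in DOX (0.32, interval 0.19 to 0.45; 0.17 with TMM). Of its 26 members with 20 UMIs, 10 were higher and 1 lower (29.7% and 16.0% of all genes), so the higher share was near that of all genes. Macrophage or monocyte-like cells (191 and 240) had 564.3 CPM and 508.8 CPM (0.15, interval 0.03 to 0.26), with TMM 0.06 and an interval across 0. Of 24 members, 11 were higher and 4 lower (27.2% and 16.9% of all genes): Mcm3, Mcm4, Mcm6 and Slbp had intervals above 0, and Rfc3 was at 13.3 CPM in DOX plus AMH and 31.6 CPM in DOX (-1.25).

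Epithelial-like cells (191 and 333) had 545.9 CPM of members in DOX plus AMH and 657.8 CPM in DOX (-0.27, interval -0.32 to -0.22). Of 31 members, 11 were lower and 0 higher (12.3% and 19.0% of all genes), led by Mcm5 at 10.02 CPM in DOX plus AMH and 17.03 CPM in DOX (-0.77). Here the summed CPM of the G2/M genes did not go along, at 867.9 CPM in DOX plus AMH and 816.7 CPM in DOX (0.09, interval 0.05 to 0.13). In cells thinned to a common depth the G2/M genes were lower too, with 2.88 UMIs per cell in DOX plus AMH and 3.31 in DOX. Member UMIs per cell were 2.39 and 2.79, and G2/M cells made up 14.5% and 20.9% of thinned cells. The direction of the G2/M genes in this class therefore depends on the settings. Rrm2 (-0.63), E2f8 (-0.69) and Pclaf (-0.50) were lower by less than in stromal-like cells, and Pola1 was at 40.8 CPM and 47.1 CPM (-0.21, interval -0.39 to -0.02), the opposite sign to its stromal ratio; the differences between classes were not tested. All 8 squamous markers were higher in these cells, at 1141 CPM in DOX plus AMH and 33.3 CPM in DOX. All 8 stromal markers (222.7 CPM and 431.6 CPM) and all 8 vascular endothelial markers (23.6 CPM and 49.3 CPM) were lower. The part of these markers' cells was not tested. With classes from clusters the log2 ratio of the summed members was -0.12. In cluster 15, led by Fxyd4 and Erbb4, it was also -0.12 (interval -0.18 to -0.07).

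Lymphatic endothelial-like cells (51 and 88) had 587.4 CPM in DOX plus AMH and 768.5 CPM in DOX (-0.39, interval -0.53 to -0.24), with 11 of 24 members lower and 2 higher (20% of all genes in each direction). This class too lay in different clusters, since cluster 37 held 1 cell of DOX plus AMH and 40 cells of DOX; in cluster 29 the members summed to 570.1 CPM in DOX plus AMH and 866.3 CPM in DOX (-0.60). All 8 stromal markers were lower in the DOX plus AMH cells (906.3 CPM against 2309 CPM in DOX) and all 8 macrophage markers higher (410.2 CPM against 138.2 CPM), and their part was not tested. Mesothelial-like cells (129 and 91) had 601.6 CPM in DOX plus AMH and 575.0 CPM in DOX (0.07, interval -0.04 to 0.17), with 8 of 30 members lower and 7 higher (31.8% and 16.8% of all genes). TMM scaling changes this call, with a ratio of 0.22 (interval 0.12 to 0.32), 5 members lower and 10 higher. The share of all genes was not taken on the TMM scale. Over the 10 classes the interval of the sum lay below 0 in 6, above 0 in 3 and across 0 in 1.

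**Figure D5:**
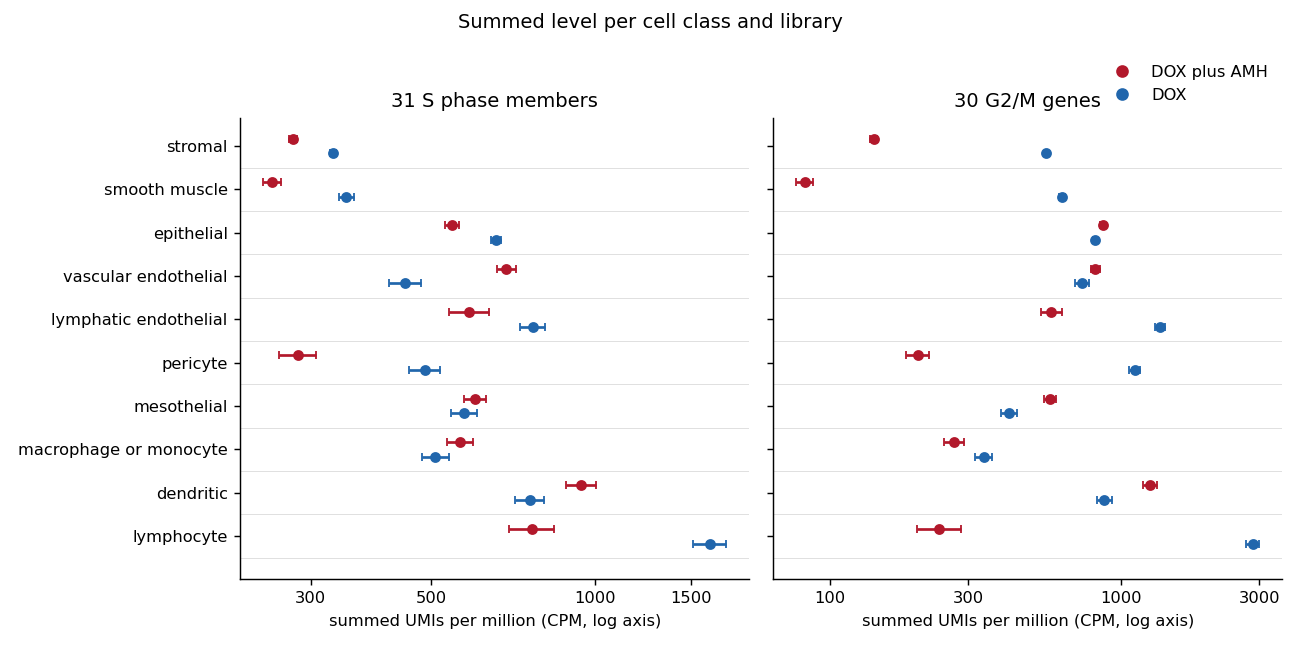
Summed CPM of the 31 members (left) and of 30 G2/M genes (right) per cell class in DOX plus AMH (red) and DOX (blue), on log axes, with exact Poisson 95% intervals. Lymphocyte-like cells show the widest gap for the members, at 765.8 and 1625 CPM, and vascular endothelial-like cells the opposite order at 687.3 and 447.4 CPM.

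Read gene by gene across classes, Dtl was at least 1.3-fold lower in 8 of the 9 classes where it held 20 UMIs and higher in 0. The share of all genes as much lower ran from 8.88% in stromal-like to 31.8% in mesothelial-like cells. The share as much higher ran from 16.8% in mesothelial-like cells to 29.7% in the dendritic class. No count over classes was taken for all genes. Slbp was lower in 0 of 10 classes and higher in 3, and Pold1 was neither in any of 5. Pclaf was lower in 6 of 10 classes and higher in 1, and Mcm5 was lower in 7 and higher in 2. Members under 20 UMIs stood outside these counts, and the limit passed through close pairs: Cdt1 in pericyte-like cells was inside with 20 UMIs (-0.78), and Ccne2 in the dendritic class outside with 19 (0.50).

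Of a wider list of 66 other replication genes, 17 were lower and 4 higher in stromal-like cells, beside 8.88% and 26.2% of all genes, with a median log2 ratio of -0.12. With TMM scaling 29 were lower and 0 higher, but TMM shifts all genes alike and their share was not taken on that scale. The lowest were Ccna2, the cyclin of S and G2 (2.08 CPM in DOX plus AMH, 8.36 CPM in DOX; -2.01), Mcm10 (-1.58), the thymidine kinase Tk1 (-1.26), the repressor E2f7 (-1.22) and the histone chaperone Asf1b (-1.16). The highest were Rnaseh2a, a subunit of RNase H2 (14.5 CPM and 10.3 CPM; 0.50), the MCM binding protein Mcmbp (0.44), Orc1 (0.43), Mcm9 (0.39) and Pola2, partner of Pola1 in polymerase alpha (0.35). With TMM scaling these 5 kept their sign, at 0.31, 0.25, 0.24, 0.20 and 0.16. Among the 10 with most UMIs, Rnaseh2c was at 59.7 CPM in DOX plus AMH and 76.1 CPM in DOX (-0.35), Samhd1 at -0.30, Pold4 at -0.26, Dctpp1 at -0.17, Orc6 at -0.12 and Pole4 at -0.10, while Orc3 and Rpa3 were at 0.22, Rfc1 at 0.14 and Usp1 at 0.12; the last 2 turned negative with TMM.

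Of 23 genes that hold cells before S phase or govern that step, 2 were at least 1.3-fold lower and 2 higher in stromal-like cells. With TMM 5 were lower and 0 higher, a scale on which the share of all genes was not taken. The share lower on the CPM scale was near that of all genes (8.88%; 26.2% were higher). Cdkn1a, the p53-induced inhibitor p21, was at 83.4 CPM in DOX plus AMH and 169.4 CPM in DOX (-1.02, interval -1.08 to -0.97), and it was also lower in smooth muscle-like cells, at 278.0 CPM and 630.1 CPM (-1.18). Cdkn2a, named after its value was seen, was lower as well, from 7 UMIs in DOX plus AMH and 48 UMIs in DOX. Cdkn1c, the inhibitor p57, was at 96.9 CPM in DOX plus AMH and 72.8 CPM in DOX (0.41), and the D cyclin Ccnd3 at 77.5 CPM and 52.3 CPM (0.57). Ccnd2 (0.20), Cdkn1b (0.12, or -0.07 with TMM), Cdk4 (-0.04), Btg2 (-0.13) and Rb1 (-0.19) lay closer to 0.

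All 30 G2/M genes were at least 1.3-fold lower in stromal-like cells, and together they summed to 141.5 CPM in DOX plus AMH and 553.3 CPM in DOX (-1.97, interval -2.01 to -1.93). Top2a, the target of doxorubicin, was at 17.7 CPM and 62.7 CPM (-1.82). Cenpf, Prc1, Ube2c, Mki67 and Cenpa had ratios of -2.49, -2.22, -2.50, -2.001 and -2.07 in that order. The same list was lower in smooth muscle-like (-2.94), pericyte-like (-2.48), lymphocyte-like (-3.58), lymphatic endothelial-like (-1.24) and macrophage or monocyte-like cells (-0.34), and higher in dendritic (0.52), mesothelial-like (0.46), vascular endothelial-like (0.15) and epithelial-like cells (0.09).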

How the data were processed

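Uteri were cut and dissociated with enzymes, and each pooled cell suspension was sequenced as 1 single-cell 3′ library. The deposited values are UMI counts per gene and cell, made with Cell Ranger 7.0.0 on mm10 per the submitters' processing notes, and they were not normalized. Depth was 97887259 UMIs over 8083 barcodes in DOX plus AMH and 129530270 UMIs over 9258 barcodes in DOX.

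Cells under 1000 UMIs or 500 genes, or above 15% mitochondrial UMIs, were removed, and cells with a Scrublet score over 0.2 (327 in DOX plus AMH, 352 in DOX) were taken out as doublets. Cells were classed by marker scores of at least 0.25 with a margin of 0.05, and 156 and 222 cells stayed unclassed. The scoring rule and the doublet limit were set after seeing the data. The members and lists were chosen with earlier results of these data known. Clusters came from scanpy 1.11.5 (1983 variable genes without cell cycle genes, 30 components, 15 neighbours, Leiden resolution 2).

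Counts were summed per class and library and given as CPM, with exact 95% intervals from scipy 1.17.1 that cover counting error only. A gene was counted as higher or lower at 1.3-fold or more with at least 20 UMIs in the libraries together. With 1 library per group no test was run. TMM factors came from edgeR 4.0.16 and median-of-ratios factors from DESeq2 1.42.0, and neither tool was used for a test. All members were eligible to be named. Of the other replication genes, the genes that hold back or govern S phase entry and the G2/M genes, the 10, 8 and 6 with most stromal UMIs were named, and of the first list also the 5 highest and 5 lowest ratios among genes with at least 100 UMIs. Promoters were matched by symbol for 26 of 31 members. Ratios, their intervals and the thinning were tested on simulated data. Mcm7, Gins2, Cdc45, Ccne2, E2f8, Rfc2, Fen1 and Pclaf overlap genes on the opposite strand, and the strand setting of the counting is not given in the sources used here.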

Additional observations from a re-analysis of the deposited data

Results flagged for a closer look

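The members' sum had opposite directions in different cell classes of the same libraries. The log2 ratio of DOX plus AMH over DOX was 0.62 in vascular endothelial-like cells and 0.32 in the class gated on dendritic markers, while it was -0.25 in stromal-like cells. With 1 library per group the difference between classes was not tested.

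Squamous keratin-rich epithelial cells were left out of the comparisons because they numbered 416 in DOX plus AMH and 7 in DOX. Their members summed to 349.6 CPM in DOX plus AMH.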

How the results depend on the processing

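No paired analysis was possible because each group is 1 library. Of 100 alternative values of the members' sum over the 10 classes, 67 moved by less than the counting interval, 30 moved further and 3 reversed. All 3 reversals came from keeping only cells without G2/M UMIs, thinned: 0.26 in stromal-like, 0.18 in smooth muscle-like and 0.15 in pericyte-like cells. The pericyte-like interval lay across 0 (-0.21 to 0.53). Medians over all genes in the same cells were 0.18, 0.13 and 0.07 in that order. With this setting the interval lay below 0 in 0 classes, against 6 as reported. The sums of epithelial-like (-0.15), lymphatic endothelial-like (-0.37) and lymphocyte-like cells (-0.21) stayed negative with intervals across 0. The stromal sum was -0.44 with TMM, -0.45 with median-of-ratios, -0.13 thinned to 5000 UMIs and, in alternatives chosen after seeing the data, -0.30 without clusters almost wholly of 1 library and -0.0073 without the dividing cluster. Stromal members lower numbered 1 of 28 in cells without G2/M UMIs (7.09% of all genes) and 11 of 31 thinned (9.26%). They numbered 7 of 31 without the dividing cluster (8.30%) and 5 at 2-fold, against 17 of 31 as reported (8.88%). The smooth muscle sum was -0.57 with TMM, -0.57 with median-of-ratios, -0.67 with classes from clusters and -0.13 thinned. Smooth muscle members lower numbered 1 of 16 in cells without G2/M UMIs (10.4% of all genes) and 6 of 22 thinned (10.997%). They numbered 9 at a minimum of 100 UMIs and 7 at 2-fold, against 16 of 30 as reported (11.9%). The vascular endothelial sum was 0.16 with classes from clusters, 0.29 in cells without G2/M UMIs and 0.42 thinned. Its members higher numbered 6 of 29, 1 of 2 and 5 of 11 there (16.3%, 26.7% and 23.4% of all genes). They numbered 7 at 100 UMIs and 4 at 2-fold, against 22 of 29 as reported (17.1%). No share over all genes was taken for the counts at 2-fold or at 100 UMIs. The stromal share difference, 1.47 points, was 3.42 at 2 member UMIs, -1.94 at 5, -1.44 thinned to 2000 UMIs and -9.58 without thinning, so its direction depends on these settings. Where fewer cells or UMIs remain, fewer members reach 20 UMIs; other causes were not tested.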
